A study of Homo sapiens with 12 samples.

Results

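RNA-seq on Day 12 of cardiac differentiation was compared between cells that had been passaged on Day 2 (P-DF) and cells that had stayed in static culture with a WNT inhibitor (NP-IWP2). All libraries came from the wild-type H1 line, human embryonic stem cells that were first induced to mesendoderm progenitors. NP-IWP2 cells were not passaged and received IWP2, a small molecule that blocks the secretion of WNT ligands, from Day 2 to Day 4. By contrast, P-DF cells were dissociated and re-plated on Day 2 and then differentiated in DF medium with no IWP2. The comparison takes the 4 libraries of these groups, 2 per group, out of 12 libraries in the series. The groups differ both in passaging and in IWP2. Per the paper, passaging also meant a split into new wells and, in its later experiments, a ROCK inhibitor that aids survival after dissociation. The shares of these in any difference cannot be told apart.

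Mesendoderm is the common precursor of mesoderm and endoderm, and low WNT activity after its formation favors cardiac mesoderm. Cardiac mesoderm gives rise to cardiomyocytes, and neighboring mesoderm and endoderm give rise to endothelium, epicardium, stromal cells and the liver bud. Genes of these lineages can therefore be read as markers of what a differentiating culture holds. In bulk RNA, fewer cells of a type and less RNA per cell cannot be told apart.

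The NP-IWP2 libraries, replicates 1 and 2, held 17855196 and 16370810 counted reads, and the P-DF libraries, replicates 3 and 4, held 14885589 and 15955256. Pearson's r of log2 CPM across genes, which are not independent replicates, was 0.987 between the NP-IWP2 libraries and 0.979 between the P-DF libraries. In both pairs the counts differed by more than sampling noise. Nothing in the labels says that replicates were separate cultures, so p-values measure the spread between these libraries, which may be technical. TNNT2, the troponin T of cardiac muscle, was at 97.1 FPKM or more in all 4 libraries, whereas the pluripotency factors POU5F1 and NANOG were at 0.05 FPKM or less. Mitochondrially encoded genes took 9.70% and 9.37% of the counts in NP-IWP2 and 12.1% and 12.4% in P-DF.

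Of 17995 genes tested, 5361 (29.8%) differed between the passaged and the static group by edgeR's quasi-likelihood test at a Benjamini-Hochberg adjusted p under 0.05. Of all tested genes, 2256 (12.5%) were higher in P-DF cells and 3105 (17.3%) were lower. The falls were larger than the rises: the median fold was 2.36 among genes that fell and 1.47 among genes that rose. A change of at least 4-fold was found for 1020 genes that fell and 116 that rose, and one of at least 16-fold for 411 and 8. Of 13479 genes with a mean of at least 1 FPKM in NP-IWP2 cells, 44 had no read in either P-DF library. Of 12879 genes at that level in P-DF cells, 0 had no read in NP-IWP2 cells.

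The number of calls depended on the libraries in the model. A model of all 12 libraries in 6 groups called 783 genes (4.01%), of which 136 (0.697%) were higher and 647 (3.32%) lower in P-DF cells, and 777 of these were also called with 4 libraries, in the same direction. In that model the spread is shared with a Day 12 pair treated with both passaging and IWP2 (P-IWP2), whose replicates 5 and 6 correlated at an r of 0.902, and the biological coefficient of variation was 0.228 in place of 0.0926. Without P-IWP2 replicate 5, the model called 4485 genes, 1692 higher and 2793 lower. Without NP-IWP2 replicate 1 or replicate 2, the test on the remaining 3 libraries called 2484 and 2137 genes. Adjusted p-values below are from edgeR on the 4 libraries unless the 12 libraries are named.

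**Figure D1:**
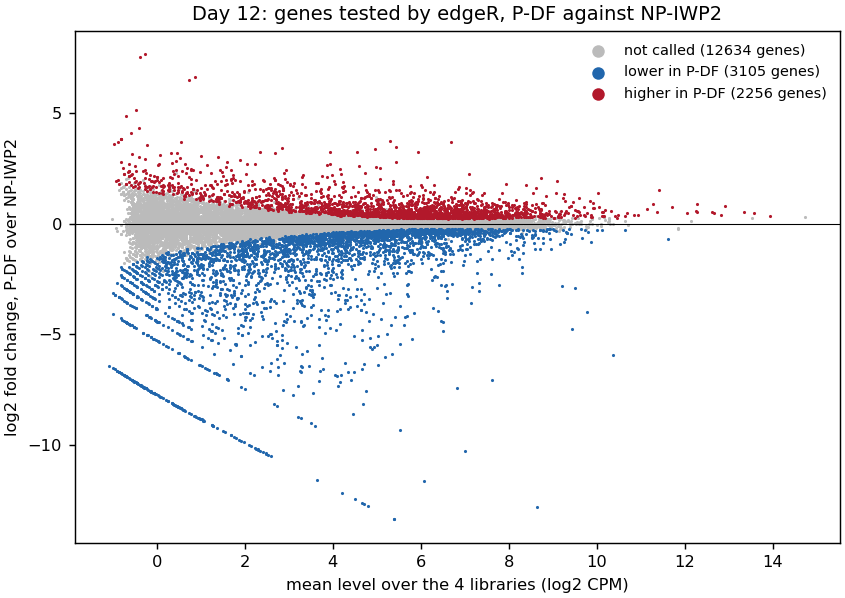
Each point is 1 of the 17995 tested genes, with its mean level over the 4 libraries (log2 CPM) on the horizontal axis and its fitted log2 fold change, P-DF over NP-IWP2, on the vertical axis. The 2256 red genes were higher and the 3105 blue genes lower in P-DF cells, and the blue points reach further from 0; points on the lowest diagonal have no read in P-DF, and their fitted change is not a bound.

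The deepest falls were those of genes of the fetal liver. Of 30 tested genes for fetal liver plasma proteins and hepatic regulators, 27 were lower in P-DF cells, 2 were higher and 1 was not called, against 17.3% of all genes lower. The 12 libraries gave 25 of 30 lower and 0 higher. The median log2 fold change was -7.50 as fitted, and -5.51 with genes at 0 in P-DF cells set to their bound. All genes tested had a median of -0.003. The summed level of the list was 844 and 615 FPKM in NP-IWP2 cells and 38.3 and 40.1 FPKM in P-DF cells, so the groups were far apart.

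The promoters of a few of these genes are shown because genes of the list moved together and because several hold the core half-site of HNF1, a homeodomain factor of liver and gut endoderm. Each is the 120 bases before the RefSeq start (GRCh38.p14), with GTTAAT or its reverse complement ATTAAC in capitals.
ALB (chr4:73404167-73404286, plus strand): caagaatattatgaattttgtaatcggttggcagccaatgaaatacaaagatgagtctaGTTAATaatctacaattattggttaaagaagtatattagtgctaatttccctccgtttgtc
FGA (chr4:154590743-154590862, minus strand): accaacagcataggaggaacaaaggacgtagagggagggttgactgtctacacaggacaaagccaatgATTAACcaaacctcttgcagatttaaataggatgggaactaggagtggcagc
FGB (chr4:154562860-154562979, plus strand): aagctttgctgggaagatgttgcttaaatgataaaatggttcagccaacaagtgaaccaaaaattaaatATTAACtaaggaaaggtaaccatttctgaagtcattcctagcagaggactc
SERPINA1 (chr14:94388603-94388722, minus strand): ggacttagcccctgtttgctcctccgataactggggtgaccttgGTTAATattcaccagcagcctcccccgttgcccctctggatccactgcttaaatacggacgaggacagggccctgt
HNF4A (chr20:44401119-44401238, plus strand): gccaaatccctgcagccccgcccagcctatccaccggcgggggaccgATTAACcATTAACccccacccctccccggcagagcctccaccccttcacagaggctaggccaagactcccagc
The half-site, searched on both strands, was in the RefSeq promoters of 7 of 21 hepatic genes with an entry (33.3%), and in 6.88% of all 35116 promoters. This search covered each whole promoter entry, which is longer than the 120 bases shown. AFP is among the 7 but has no half-site in those 120 bases. It was in promoters of 1 of 18 sarcomere genes, 0 of 15 endothelial genes and 1 of 14 stromal genes. Listed genes were counted once if any of their promoters matched, while the share of all promoters counts each promoter. A gene with several promoters thus had more chances of a match, and these shares are not in like units. The motif was chosen after the changes were known, a match is only a match of letters, and no match says only that these letters are not in the window. Among 3 other motifs searched the same way, the HNF4 site CAAAGTCCA was in 1 of 21 hepatic genes, beside 0.384% of all promoters. The forkhead site TGTTTAC was in 1 of 21, beside 3.42%, and the MEF2 site CTAAAAATA in 0, beside 0.504%. The HNF4 and forkhead sites were each also in 1 of 15 endothelial genes, and the MEF2 site in 1 of 18 sarcomere genes.

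Of the hepatic regulators, HNF4A, the nuclear receptor that maintains hepatocyte identity, was at 1.21 and 0.63 FPKM in NP-IWP2 cells and had no read in P-DF cells, a level at least 92.2-fold lower (adjusted p = 0.000218). The 3-count limit behind this and other bounds is taken over the P-DF group and covers counting error only. FOXA2, a pioneer factor of endoderm, was at 1.24 and 0.67 FPKM in NP-IWP2 cells and had no read in P-DF cells, at least 25.5-fold lower (adjusted p = 0.00112). HHEX, a homeodomain factor of the liver bud from the endoderm list, was at 3.98 and 2.47 FPKM and also had no read in P-DF cells, at least 79.7-fold lower (adjusted p = 0.000122). These regulators were low in NP-IWP2 cells too, below 4 FPKM, and were detected in both NP-IWP2 libraries.

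Of the plasma proteins, AFP, the fetal counterpart of albumin, was at 299 and 211 FPKM in NP-IWP2 cells and at 0.06 and 0.00 FPKM in P-DF cells. With 3 reads in P-DF cells, the ratio of NP-IWP2 to P-DF was 7988 (exact 95% counting interval 2733 to 38737, adjusted p = 4.24e-07). ALB, the adult counterpart, was low in all libraries, at 0.33 and 0.48 FPKM against 0.02 and 0.05 FPKM, a log2 fold change of -3.26 ± 0.62 SE (adjusted p = 0.00504, but 0.0627 without NP-IWP2 replicate 2). On this per-length scale AFP was thus far above ALB in both NP-IWP2 libraries.

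The blood clotting protein FGB was at 22.8 and 15.8 FPKM in NP-IWP2 cells and had no read in P-DF cells, at least 827-fold lower (adjusted p = 4.2e-06). The carrier AHSG was at 42.1 and 34.2 FPKM and had no read in P-DF cells, at least 825-fold lower (adjusted p = 1.17e-06). The lipoprotein APOA2 was at 76.5 and 40.9 FPKM and also fell to 0 reads, at least 546-fold lower (adjusted p = 3.9e-05). For these 3 genes NP-IWP2 replicate 1 was above replicate 2, by more for APOA2 than for AHSG, and no P-DF library held a read. APOA4, FGA and RBP4, the carrier of retinol, likewise had no read in P-DF cells, with bounds of 494.5, 515 and 441. SERPINA1, a protease inhibitor of plasma, held 1 read in P-DF cells, and the ratio was 3996 (exact 95% counting interval 717 to 157876, adjusted p = 5.49e-07). APOA1, the main protein of high-density lipoprotein, kept a level of 6.07 and 5.66 FPKM in P-DF cells, against 114 and 87.5 FPKM (log2 fold change -4.02 ± 0.16 SE, adjusted p = 1.7e-06).

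The 2 listed genes that rose, PROX1 (12.2 to 13.7 FPKM in static cells, 16.0 to 19.2 FPKM after passaging) and TBX3 (8.58 to 10.5 FPKM, 11.9 to 13 FPKM), are also expressed in heart and stand in the list of cardiac transcription factors. Their log2 fold changes were 0.52 and 0.47. They did not pass with 12 libraries (adjusted p = 0.203 and 0.515) or without NP-IWP2 replicate 2 (adjusted p = 0.112 and 0.189).

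**Figure D2:**
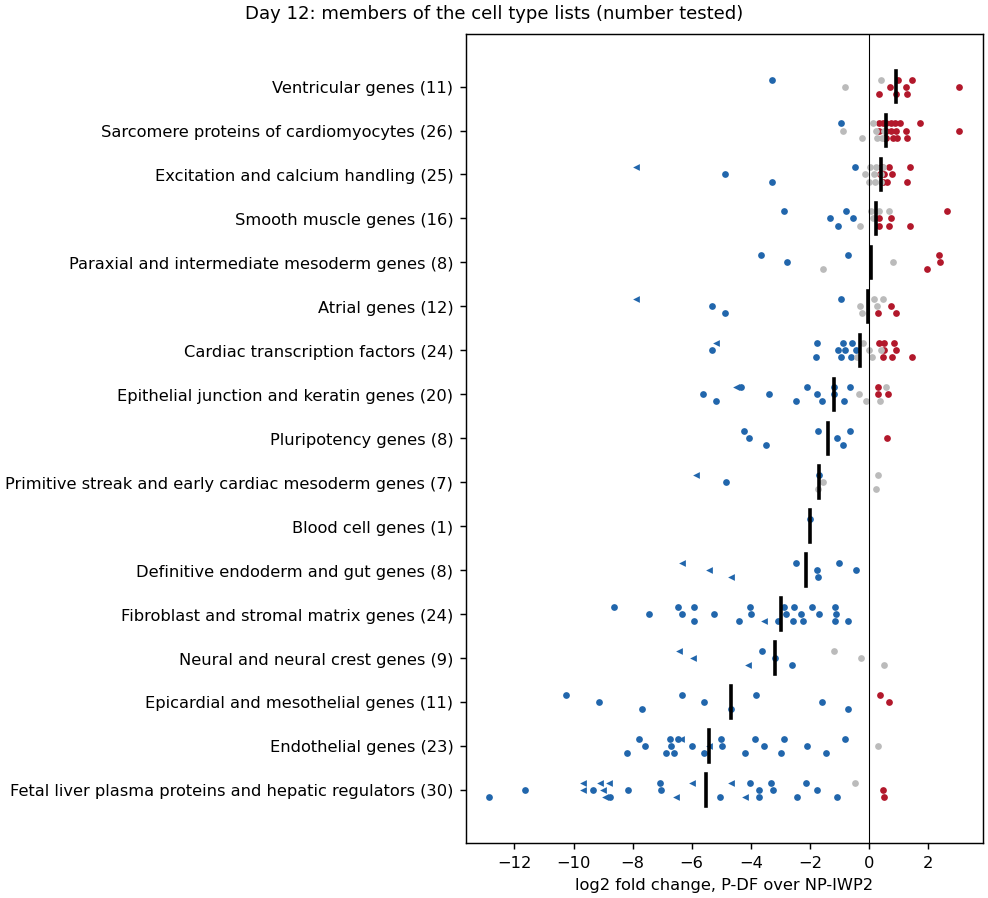
Each symbol is the log2 fold change, P-DF over NP-IWP2, of 1 tested member of a cell type list, red for higher in P-DF cells, blue for lower and grey for not called; triangles are bounds for genes with no read in P-DF, and the black bar is the median with bounds. The hepatic median is -5.51, the endothelial -5.43, the epicardial -4.66 and the stromal -2.99, while the ventricular and sarcomere medians are 0.93 and 0.58.

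Definitive endoderm and gut genes fell as well: all 8 tested members were lower in P-DF cells, against 17.3% of all genes, and 3 of 8 with 12 libraries or 5 of 8 without NP-IWP2 replicate 2. The median log2 fold change was -2.12. SOX17, the endoderm regulator that is also active in endothelium, was at 1.67 and 2.14 FPKM in NP-IWP2 cells and had no read in P-DF cells, at least 43.1-fold lower (adjusted p = 0.000158 and, with 12 libraries, 0.0715). The other 10 genes of this list were not tested, and their largest library level was 0.77 FPKM. Of 20 tested epithelial junction and keratin genes, 13 fell and 3 rose, against 17.3% and 12.5% of all genes. With 12 libraries the counts were 7 and 0. CDH1, the cadherin of epithelia, fell from 3.48 and 2.13 FPKM to 0.06 and 0.05 FPKM (log2 fold change -5.61 ± 0.40 SE, adjusted p = 2.76e-05). EPCAM, a surface marker of epithelium, fell less, from 9.03 and 5.86 FPKM to 3.12 and 3.12 FPKM (log2 fold change -1.18 ± 0.22, adjusted p = 0.0047, but 0.0604 without NP-IWP2 replicate 1). The members that rose were PKP2, DSP and TJP1, junction proteins that cardiomyocytes also use. The calls of DSP and TJP1 were lost without NP-IWP2 replicate 1 (adjusted p = 0.0932 and 0.13) or replicate 2 (adjusted p = 0.346 and 0.231).

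Stromal matrix genes were lower in P-DF cells as a group. Each of 24 tested genes was lower, against 17.3% of all genes, with a median log2 fold change of -2.99, and 15 were lower with 12 libraries. The summed level was 1811 and 1810 FPKM in NP-IWP2 cells and 392 and 341 FPKM in P-DF cells, which do not overlap.

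Of the fibrillar collagens, COL1A1 was at 177 and 198 FPKM in NP-IWP2 cells and at 12.0 and 10.1 FPKM in P-DF cells (log2 fold change -4.00 ± 0.12 SE, adjusted p = 4.35e-07). COL3A1, its partner in soft connective tissue, was at 401 and 383 FPKM and at 8.17 and 3.99 FPKM (log2 fold change -5.92 ± 0.31, adjusted p = 5.4e-06). The fibroblast proteoglycan LUM was at 97.6 and 73.2 FPKM and at 0.55 and 0.38 FPKM (log2 fold change -7.44 ± 0.23, adjusted p = 4.35e-07). DCN, another small proteoglycan of matrix, was at 4.10 and 2.65 FPKM and at 0.02 and 0.00 FPKM, a ratio of 428 (exact 95% counting interval 146 to 2078). Replicates of a group lay close together beside the gap between groups for each of these genes. FN1, the fibronectin made by many cell types, fell least of those named here, from 239 and 222 FPKM to 139 and 130 FPKM (log2 fold change -0.69 ± 0.10, adjusted p = 0.001).

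Epicardial and mesothelial genes fell in 9 of 11 tested cases and rose in 2, with 3 and 0 called with 12 libraries. Of all genes tested, 17.3% were lower and 12.5% higher. The median log2 fold change was -4.66. TBX18, a T-box factor of the epicardium and of the sinus venosus, was at 22.2 and 38.9 FPKM in NP-IWP2 cells and at 0.02 and 0.02 FPKM in P-DF cells (log2 fold change -10.27 ± 0.43 SE, adjusted p = 2.04e-06). The zinc finger factor WT1 was at 2.36 and 3.58 FPKM and at 0.00 and 0.01 FPKM, and TCF21, a regulator of cardiac fibroblast fate, was at 2.41 and 3.92 FPKM and at 0.05 and 0.02 FPKM. For all 3 genes NP-IWP2 replicate 2 was above replicate 1, the opposite of the order for FGB, AHSG and APOA2. With 12 libraries the adjusted p-values of TBX18, WT1 and TCF21 were 0.0632, 0.0694 and 0.172. P-IWP2 replicates 5 and 6 were at 106 and 0.08 FPKM for TBX18. The members that rose were SEMA3D and LRRN4, with log2 fold changes of 0.67 and 0.37, and both calls were lost without NP-IWP2 replicate 1 (adjusted p = 0.162 and 0.288) or replicate 2 (adjusted p = 0.122 and 0.073).

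Endothelial genes fell in 22 of 23 tested cases (9 of 23 with 12 libraries), against 17.3% of all genes. The median log2 fold change was -5.59 as fitted and -5.43 with bounds. PECAM1, an adhesion molecule of endothelial junctions, was at 1.84 and 2.50 FPKM in NP-IWP2 cells and at 0.01 and 0.01 FPKM in P-DF cells, a ratio of 243 (exact 95% counting interval 67.1 to 2015, adjusted p = 5.07e-06). CDH5, the cadherin of vascular endothelium, was at 4.73 and 6.05 FPKM and at 0.07 and 0.02 FPKM (log2 fold change -6.85 ± 0.31 SE, adjusted p = 2.9e-06). TEK, the angiopoietin receptor, was at 11.5 and 10.9 FPKM and at 0.10 and 0.01 FPKM (log2 fold change -7.57 ± 0.30, adjusted p = 1.4e-06). EMCN, an endothelial sialomucin, fell from 1.67 and 1.59 FPKM to 0 reads, at least 82.0-fold lower. The exception was KDR, a VEGF receptor that cardiac progenitors share with endothelium, at 177 and 156 FPKM in NP-IWP2 cells and at 224 and 161 FPKM in P-DF cells (log2 fold change 0.29 ± 0.16, adjusted p = 0.20). KDR was the largest part of the list's summed level, and that sum was 247 and 241 FPKM against 230 and 166 FPKM.

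**Figure D3:**
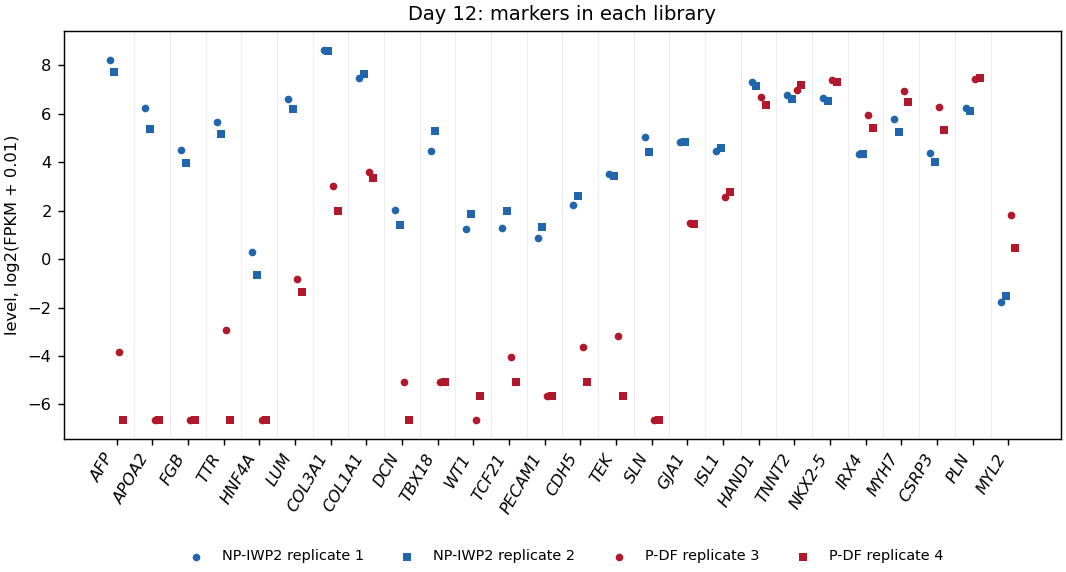
The level of 26 marker genes in each library, as log2(FPKM + 0.01), with NP-IWP2 replicates 1 and 2 in blue and P-DF replicates 3 and 4 in red. From AFP to ISL1 the blue points lie above the red ones, with AFP at 299 and 211 FPKM against 0.06 and 0.00 FPKM, and for MYL2, at the right, the order is reversed.

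Genes of further lineages were fewer among those tested, and their counts stand beside 17.3% of all genes lower and 12.5% higher. Of 9 tested neural and neural crest genes, 6 fell and 0 rose (2 and 0 with 12 libraries). Of 8 tested pluripotency genes, 7 fell and 1 rose (4 and 0 with 12 libraries). LIN28A, an RNA-binding protein of early embryonic cells, fell from 16.1 and 18.7 FPKM to 5.88 and 3.96 FPKM (log2 fold change -1.74 ± 0.17 SE, adjusted p = 0.000159). Of 7 tested genes of the primitive streak and early cardiac mesoderm, 3 fell and 0 rose (2 and 0 with 12 libraries), and PDGFRA, a receptor of mesenchyme and cardiac progenitors, was at 19.5 and 22.01 FPKM against 5.52 and 6.58 FPKM. Of 18 blood cell genes, 1 was tested: ITGA2B, at 0.27 FPKM or less in all 4 libraries, was lower (adjusted p = 0.0195, but 0.0884 or 0.154 without NP-IWP2 replicate 1 or 2). Among paraxial and intermediate mesoderm genes, 3 of 8 rose and 3 fell (2 and 1 with 12 libraries). Among the risers, OSR1 and EYA1 stayed at or below 1.08 FPKM, and EYA1 was not called without NP-IWP2 replicate 2 (adjusted p = 0.118).

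In contrast, most sarcomere genes were higher in P-DF cells. Of 26 tested genes of the contractile apparatus, 18 rose, 1 fell and 7 were not called, against 12.5% of all genes higher and 17.3% lower. The median log2 fold change was 0.58, and the alternatives gave 0.45 to 0.73. With 12 libraries, 0 of 26 passed, and without P-IWP2 replicate 5, 13 rose and 1 fell. Of the 4 libraries, leaving out NP-IWP2 replicate 1 or replicate 2 left 15 and 10 higher. The summed level was 9511 and 8241 FPKM in NP-IWP2 cells and 11042 and 10144 FPKM in P-DF cells, a 1.19-fold difference in means, small beside those of the lists above.

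The largest rises of the list were those of MYL2, CSRP3 and MYH7. MYL2, the regulatory light chain of the ventricle, was at 0.28 and 0.34 FPKM in NP-IWP2 cells and at 3.56 and 1.37 FPKM in P-DF cells (log2 fold change 3.05 ± 0.57 SE, adjusted p = 0.00454, but 0.0533 without NP-IWP2 replicate 1). The level of MYL2 thus stayed low, and the P-DF libraries differed more from each other than the NP-IWP2 libraries did. MYH7, the slow myosin heavy chain of the adult ventricle, was at 54.4 and 37.9 FPKM and at 121 and 88.9 FPKM (log2 fold change 1.27 ± 0.20, adjusted p = 0.00172). CSRP3, a Z-disc protein, was at 21.1 and 16.4 FPKM and at 77.6 and 40.5 FPKM (log2 fold change 1.74 ± 0.28, adjusted p = 0.00205). For MYH7 and CSRP3, P-DF replicate 3 was above replicate 4, and both were above NP-IWP2. The giant protein TTN, which sets sarcomere length, was at 32.5 and 27.6 FPKM and at 45.1 and 60.7 FPKM (log2 fold change 0.89 ± 0.15, adjusted p = 0.0023).

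The general cardiomyocyte marker TNNT2 changed less, from 111 and 97.1 FPKM to 126 and 145 FPKM (log2 fold change 0.46 ± 0.10 SE, adjusted p = 0.0101, but 0.161 without NP-IWP2 replicate 2). MYH6, the fast myosin heavy chain of atrium and fetal ventricle, was at 1613 and 1396 FPKM against 1650 and 1748 FPKM, with a log2 fold change of 0.26 ± 0.11 that was not called (adjusted p = 0.12). MYL7, the atrial regulatory light chain, was at 2956 and 2637 FPKM against 2199 and 2283 FPKM. Its log2 fold change of -0.24 ± 0.10 was not called either (adjusted p = 0.102), although it was with total counts in place of TMM. Both MYH6 and MYL7 were called in the setting with no filter. MYH6 and MYH7 are near-identical neighbors, and reads that fit both could be split between them. The member that fell was TNNI3, the adult troponin I, from 7.74 and 8.14 FPKM to 4.59 and 3.11 FPKM (log2 fold change -0.96 ± 0.20, adjusted p = 0.00745). That call was lost without NP-IWP2 replicate 1 or replicate 2 (adjusted p = 0.0643 and 0.0814).

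Among 24 cardiac transcription factors, 8 rose and 11 fell (0 and 0 with 12 libraries, 7 and 7 without NP-IWP2 replicate 1, 4 and 6 without replicate 2), so the list did not move one way. Its median log2 fold change was -0.30, and 0.03 among genes with a mean of at least 1 FPKM. Of all genes tested, 12.5% were higher and 17.3% lower. The homeodomain factor NKX2-5, which is expressed throughout the early heart, was at 100 and 91.8 FPKM in NP-IWP2 cells and at 170 and 158 FPKM in P-DF cells (log2 fold change 0.85 ± 0.09 SE, adjusted p = 0.00022). IRX4, a ventricle-specific factor, was at 20.4 and 20.1 FPKM and at 61.5 and 43.0 FPKM (log2 fold change 1.45 ± 0.16, adjusted p = 0.000271). GATA4, TBX5 and TBX20, core factors of the heart, were not called, with log2 fold changes of -0.19, -0.41 and -0.01.

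The factors that fell included ISL1, SHOX2 and HAND1, while TBX3 of the same list rose (log2 fold change 0.47). ISL1, a marker of second heart field progenitors, was at 22.03 and 23.9 FPKM in NP-IWP2 cells and at 5.94 and 6.85 FPKM in P-DF cells (log2 fold change -1.76 ± 0.10 SE, adjusted p = 8.67e-06). SHOX2, a factor of the sinus node, was at 0.50 and 1.02 FPKM and had no read in P-DF cells. It was at least 36.6-fold lower (adjusted p = 0.000801, and 0.31 with 12 libraries). HCN4, the pacemaker channel, was not called, at 56.8 and 65.2 FPKM against 65.0 and 51.2 FPKM (log2 fold change 0.02 ± 0.13). HAND1 fell from 159 and 142 FPKM to 104 and 81.3 FPKM (log2 fold change -0.62 ± 0.13, adjusted p = 0.00694, but 0.0854 without NP-IWP2 replicate 1).

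**Figure D4:**
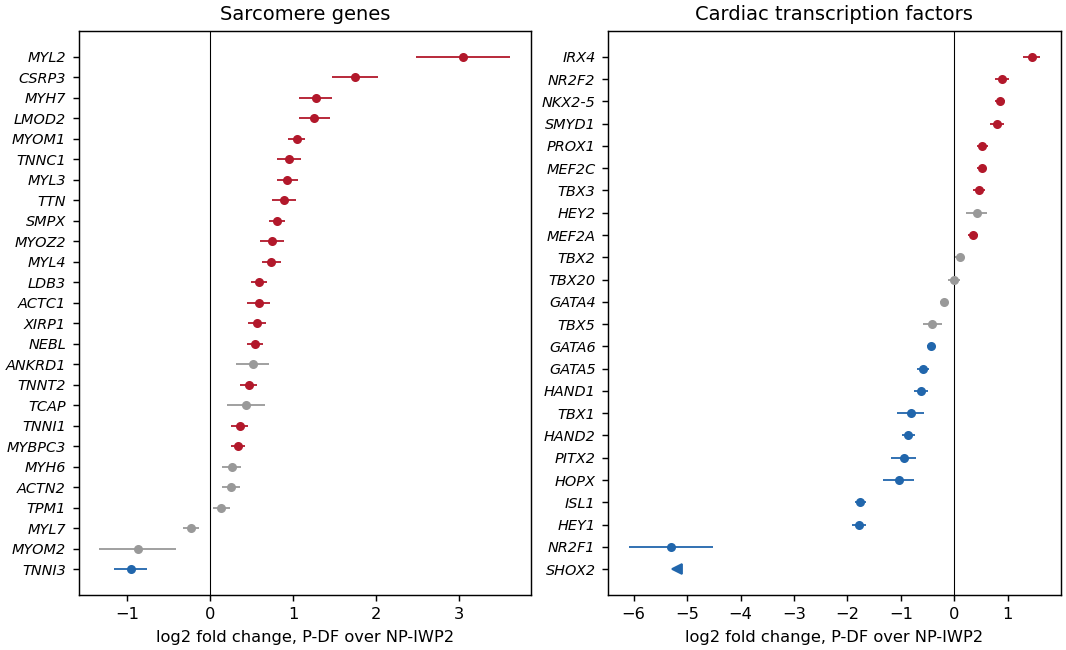
Log2 fold change, P-DF over NP-IWP2, of the tested sarcomere genes (left) and cardiac transcription factors (right), with bars of 1 SE; red genes were higher in P-DF cells, blue lower and grey not called, and the triangle is a bound for a gene with no read in P-DF. Sarcomere genes lie mostly to the right of 0, from MYL2 at 3.05 to TNNI3 at -0.96, and transcription factors on both sides, from IRX4 at 1.45 down.

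Chamber genes were counted in separate lists, beside 12.5% of all genes higher and 17.3% lower. Of 11 ventricular genes, 8 rose and 1 fell (0 and 1 with 12 libraries), with a median log2 fold change of 0.93, whereas of 12 atrial genes 3 rose and 4 fell (0 and 0 with 12 libraries), with a median of -0.04 that turned positive without replicate 1 (0.05) or replicate 4 (0.20). The difference between these lists was not tested. SLN, the atrial regulator of the sarcoplasmic calcium pump, was at 32.5 and 21.2 FPKM in NP-IWP2 cells and had no read in P-DF cells, at least 239-fold lower (adjusted p = 2.29e-05). KCNJ3, a subunit of the atrial acetylcholine-gated potassium channel, fell from 2.08 and 2.91 FPKM to 0.14 and 0.03 FPKM (log2 fold change -4.86 ± 0.44 SE, adjusted p = 9.87e-05). The adjusted p-values of SLN and KCNJ3 with 12 libraries were 0.0597 and 0.0951. The atrial genes that rose were MYL4, NR2F2 and PAM. MYL4, the essential light chain of the atrium and fetal ventricle, was at 538 and 457 FPKM against 830 and 733 FPKM (log2 fold change 0.74 ± 0.11, adjusted p = 0.00175). NR2F2, a nuclear receptor of the atrium, and PAM, an enzyme of peptide hormone processing, had log2 fold changes of 0.90 and 0.31, and PAM was not called without NP-IWP2 replicate 1 or 2 (adjusted p = 0.112 and 0.286).

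Of 25 tested genes of excitation and calcium handling, 12 rose and 4 fell (1 and 1 with 12 libraries, 8 and 3 without NP-IWP2 replicate 1, 6 and 3 without replicate 2), with a median log2 fold change of 0.40. PLN, the ventricular regulator of the calcium pump, was at 74.9 and 69.1 FPKM in NP-IWP2 cells and at 174 and 179 FPKM in P-DF cells (log2 fold change 1.37 ± 0.08 SE, adjusted p = 1.05e-05). KCNJ5, the partner subunit of KCNJ3, moved the other way from it, from 13.8 and 12.5 FPKM to 34.5 and 26.3 FPKM (log2 fold change 1.29 ± 0.14, adjusted p = 0.000219). GJA1, the main gap junction protein of working ventricle and also of fibroblasts, fell from 28.7 and 28.3 FPKM to 2.83 and 2.75 FPKM (log2 fold change -3.27 ± 0.09, adjusted p = 4.24e-07, and 0.00672 with 12 libraries). KCNH2, a repolarizing potassium channel, rose from 9.54 and 9.42 FPKM to 14.4 and 14.4 FPKM and was the one riser of the list that also passed with 12 libraries (adjusted p = 0.0419). Smooth muscle genes split, with 6 of 16 higher and 5 lower (0 and 0 with 12 libraries, 3 and 3 without NP-IWP2 replicate 1, 2 and 4 without replicate 2). ACTA2, an actin of smooth muscle and of immature cardiomyocytes, rose from 122 and 96.2 FPKM to 161 and 167 FPKM (adjusted p = 0.00326). The counts of both lists stand beside 12.5% of all genes higher and 17.3% lower.

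Many genes of energy metabolism had slightly higher RNA levels in P-DF cells, as tested with 4 libraries. Oxidative phosphorylation, the chain in mitochondria that makes most of the ATP of heart muscle, was represented by 42 nuclear subunits, of which 26 rose and 0 fell, and by 13 mitochondrially encoded subunits, of which 12 rose and 0 fell, against 12.5% of all genes higher. Their median log2 fold changes were 0.31 and 0.48, and with 12 libraries 0 of either list passed. The counts depended on which libraries were kept. Far fewer subunits of either list were called higher without NP-IWP2 replicate 1 or replicate 2, and more without P-DF replicate 3 or replicate 4. In such fits the lone library of a group is assumed to vary like the other group. COX5A, a subunit of cytochrome c oxidase, was at 99.6 and 96.4 FPKM in NP-IWP2 cells and at 139 and 138 FPKM in P-DF cells (log2 fold change 0.58 ± 0.08 SE, adjusted p = 0.000695). MT-CYB, a subunit of complex III, was at 5135 and 5034 FPKM and at 8049 and 8501 FPKM (log2 fold change 0.79 ± 0.09, adjusted p = 0.00045). Of 26 TCA cycle genes, 14 rose and 2 fell (0 and 1 with 12 libraries), with a median of 0.26, and 4 and 0 rose without NP-IWP2 replicate 1 or 2. PCK2, which draws carbon out of the cycle, fell from 2.16 and 2.09 FPKM to 0.58 and 0.41 FPKM.

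Fatty acid genes rose in 15 of 28 cases and fell in 2 (1 and 2 with 12 libraries), and 9 and 7 rose without NP-IWP2 replicate 1 or 2. ACADL, an enzyme of fatty acid oxidation, rose from 0.27 and 0.20 FPKM to 1.24 and 0.83 FPKM (log2 fold change 2.19 ± 0.33 SE, adjusted p = 0.00164). The members that fell, FABP1 and SLC27A2, are genes of liver. Of 23 glycolysis genes, 12 rose and 4 fell (0 and 2 with 12 libraries), and 5 and 4 rose without NP-IWP2 replicate 1 or 2. The glucose transporters moved apart: SLC2A4, the insulin-responsive transporter of muscle, rose from 6.14 and 6.01 FPKM to 10.8 and 9.66 FPKM (log2 fold change 0.84 ± 0.11, adjusted p = 0.000655). SLC2A1, the transporter of fetal and proliferating cells, fell from 23.6 and 20.6 FPKM to 5.62 and 3.94 FPKM (log2 fold change -2.12 ± 0.16, adjusted p = 3.93e-05, and 0.0102 with 12 libraries). Cholesterol genes showed little, with 3 of 20 higher and 4 lower (0 and 1 with 12 libraries, 2 and 1 without NP-IWP2 replicate 1, 1 and 1 without replicate 2), near the 12.5% and 17.3% of all genes.

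Cell cycle genes were lower or not called in P-DF cells, against 17.3% of all genes lower and 12.5% higher. Of 32 tested genes, 18 fell and 0 rose (0 and 0 with 12 libraries, 6 and 0 without P-IWP2 replicate 5), with a median log2 fold change of -0.43. Without NP-IWP2 replicate 1 or replicate 2, 9 and 2 fell. MKI67, a marker of proliferating cells, was at 6.02 and 6.99 FPKM in NP-IWP2 cells and at 3.39 and 3.36 FPKM in P-DF cells (log2 fold change -0.86 ± 0.09 SE, adjusted p = 0.000229). Cytosolic ribosomal protein genes fell in 13 of 27 cases and rose in 0 (0 and 0 with 12 libraries, 1 and 0 without either NP-IWP2 library), with a median of -0.23.

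**Figure D5:**
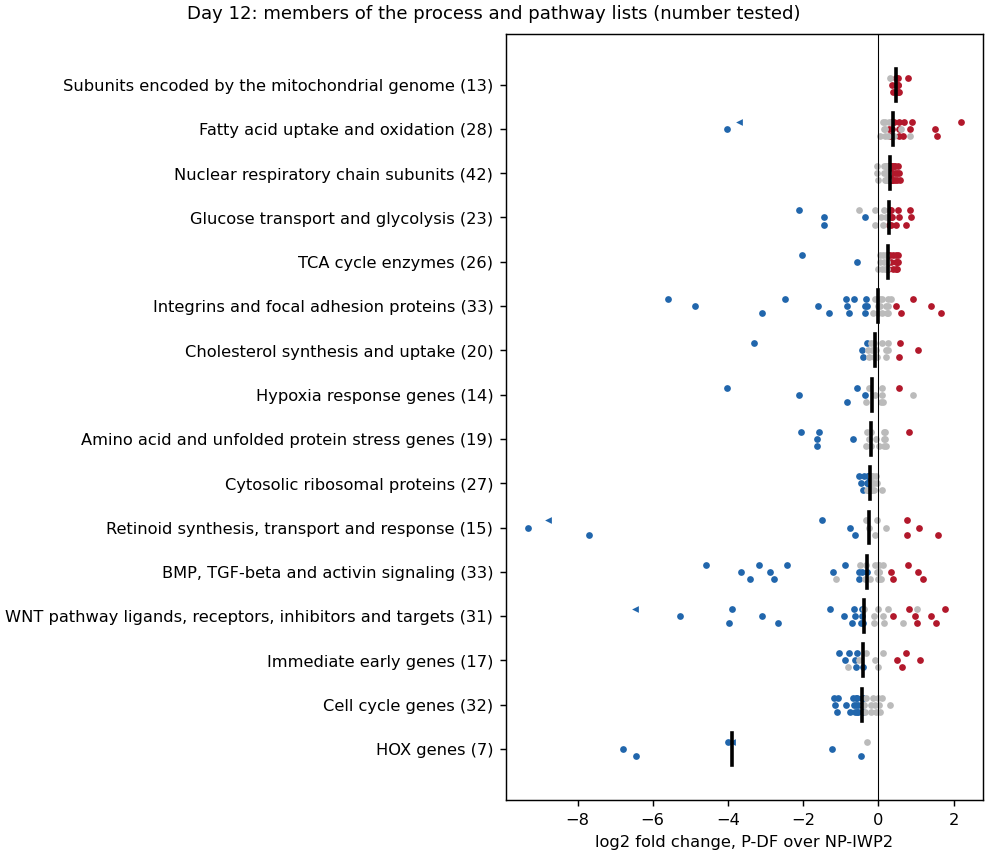
Each symbol is the log2 fold change, P-DF over NP-IWP2, of 1 tested member of a process or pathway list, drawn as in the plot of cell type lists. The mitochondrially encoded subunits have the highest median (0.48) and lie close together, cell cycle genes have a median of -0.43, and the WNT, BMP and integrin lists spread to both sides of 0.

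WNT pathway genes changed in both directions, with 7 of 31 higher and 15 lower (0 and 2 with 12 libraries, 4 and 9 without NP-IWP2 replicate 1, 5 and 9 without replicate 2), against 12.5% and 17.3% of all genes. WNT ligands signal through FZD receptors to beta-catenin, and secreted inhibitors of the SFRP and DKK families hold them back. AXIN2, a direct target and feedback inhibitor of the pathway, was at 5.05 and 5.23 FPKM in NP-IWP2 cells and at 17.1 and 8.25 FPKM in P-DF cells (log2 fold change 1.39 ± 0.29 SE, adjusted p = 0.0074, but 0.0671 or 0.0693 without NP-IWP2 replicate 1 or 2). The ligand WNT2 rose from 5.92 and 5.17 FPKM to 19.7 and 10.3 FPKM (log2 fold change 1.52 ± 0.27, adjusted p = 0.00342). Both P-DF libraries were above NP-IWP2 for these genes, replicate 3 by more than replicate 4.

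Secreted inhibitors moved both ways. NOTUM, an enzyme that inactivates WNT ligands, rose from 0.35 and 0.46 FPKM to 1.43 and 1.18 FPKM (log2 fold change 1.78 ± 0.32 SE, adjusted p = 0.00357, but 0.0563 without NP-IWP2 replicate 1). In contrast, FRZB was at 69.4 and 51.5 FPKM in NP-IWP2 cells and at 4.23 and 3.04 FPKM in P-DF cells (log2 fold change -3.98 ± 0.20 SE, adjusted p = 4.11e-06, and 0.00024 with 12 libraries). DKK1, a blocker of the LRP co-receptors, was at 17.1 and 25.7 FPKM and at 2.03 and 0.71 FPKM (log2 fold change -3.89 ± 0.35, adjusted p = 9.87e-05). SFRP5, which is also a marker of the venous pole, was at 20.3 and 32.4 FPKM and at 0.82 and 0.47 FPKM (log2 fold change -5.27 ± 0.31, adjusted p = 9.61e-06, and 0.057 with 12 libraries). For FRZB, DKK1 and SFRP5 the groups did not overlap. RSPO1, an enhancer of WNT signals, fell from 2.69 and 3.30 FPKM to 0 reads, at least 88.5-fold lower.

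Of 33 BMP, TGF-beta and activin genes, 5 rose and 13 fell (0 and 7 with 12 libraries, 1 and 10 without NP-IWP2 replicate 1, 1 and 9 without replicate 2), against 12.5% of all genes higher and 17.3% lower. The ligands BMP4 and BMP2, both of which act in cardiac induction, moved apart. BMP4 fell from 29.8 and 31.7 FPKM to 1.26 and 1.15 FPKM (log2 fold change -4.59 ± 0.11 SE, adjusted p = 3.51e-07), and BMP2 rose from 55.5 and 52.4 FPKM to 93.4 and 120 FPKM (log2 fold change 1.06 ± 0.11, adjusted p = 0.000218, and 0.203 with 12 libraries). Of 33 integrin and focal adhesion genes, 5 rose and 14 fell (1 and 6 with 12 libraries, 5 and 9 without NP-IWP2 replicate 1, 4 and 9 without replicate 2). The share higher in both of these lists was near the 12.5% of all genes. The laminin chain LAMA2 of muscle basement membrane rose from 4.98 and 4.86 FPKM to 13.3 and 11.2 FPKM (log2 fold change 1.40 ± 0.10, adjusted p = 3.38e-05). ITGA7, the laminin receptor of muscle, rose from 7.16 and 6.74 FPKM to 12.6 and 12.1 FPKM (log2 fold change 0.91 ± 0.08, adjusted p = 9.04e-05). Of the genes that fell, ITGA1, a collagen receptor, and ITGA8, a receptor of stromal cells, went from 8.83 and 10.4 FPKM to 0.42 and 0.20 FPKM and from 6.88 and 8.57 FPKM to 0.15 and 0.15 FPKM.

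Of 17995 tested genes, 107 were higher and 482 lower in P-DF cells under a stricter rule. It asked for a symbol, a call with both 4 and 12 libraries, a mean of at least 1 FPKM in the higher group and no overlap of the groups. How many of all tested genes had groups that did not overlap was not counted. Among the genes under this rule, the largest rise was that of SORCS1, a sorting receptor best known from neurons, from 0.54 and 0.58 FPKM to 8.42 and 5.75 FPKM (log2 fold change 3.74 ± 0.21 SE, adjusted p = 7.39e-06, and 0.00245 with 12 libraries). LRRC10, a cardiac-specific protein of the Z-disc region, was the most abundant of the 12 largest rises, from 11.6 and 11.5 FPKM to 51.8 and 43.8 FPKM (log2 fold change 2.13 ± 0.11, adjusted p = 4.58e-06). The others included MYRFL, ATP8A1, CNTN5, ADCY5, ACADL, SERPINI1, TENM3-AS1, L3MBTL4 and GPR183, with log2 fold changes from 1.97 to 2.90. TENM3-AS1 is antisense, and no strand setting of the counting is stated, so its reads cannot be told from those of its partner gene. Of the 12 largest falls, all but EGFL6, LINC00261, GSTA1 and DPYS are plasma proteins named above; GSTA1 has close paralogs that could share its reads.

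P-IWP2 cells of Day 12 were passaged and also received IWP2, and their replicates stood apart from each other, so they are given as levels only. The summed hepatic level was 51.2 and 41.8 FPKM in P-IWP2 replicates 5 and 6, near the 38.3 and 40.1 FPKM of P-DF cells. For stromal genes, replicate 5 was at 1817 FPKM and replicate 6 at 391 FPKM, beside 1811 and 1810 FPKM in NP-IWP2 and 392 and 341 FPKM in P-DF cells. For sarcomere genes, the same replicates were at 4337 and 10605 FPKM.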

How the data were processed

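Per the labels, RNA of H1 cells was sequenced in 12 libraries, with cDNA made by the NEBNext Single Cell/Low Input module and a SMRTbell library kit named; the strand setting and the annotation version are not given in the sources used here. The submitters' processing notes name cutadapt 1.9.1, HISAT2 2.0.1, HTSeq 0.6.1, DESeq2 and hg38. The authors deposited 1 table with raw read counts per Ensembl gene and with FPKM, which equal the deposited count divided by gene length and library total within 0.006 for 100% of 61806 genes. The table has 20417 genes with no symbol.

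Counts of the 4 Day 12 libraries were tested with edgeR 4.0.16 in R 4.3.3 (filterByExpr, TMM, quasi-likelihood test, Benjamini-Hochberg). SE is the log2 fold change over the square root of F. FPKM served for levels only. A gene with no read in P-DF was set at 3 counts over the group for a lower bound, and one with 1 to 3 reads was given as a ratio with an exact 95% interval. Counts of this comparison were simulated with 17995 genes and 200 changed. Of these, 86 of 100 2-fold and 96 of 100 4-fold changes were recovered with 17 false calls, and 10 false calls were made with no change. The changed genes were drawn only from those above a minimum mean count, so recovery at low counts was not tested. Far fewer genes were changed than were called in the data.

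Alternatives were DESeq2 1.42.0, edgeR on 12 or 11 libraries, DESeq2's size factors, total counts, no filter, a mean of at least 1 FPKM, limma 3.58.1 on log2(FPKM + 1) or log2(FPKM + 0.1), and each library left out. The comparison, the 33 gene lists and the tests were chosen with earlier results of these data known. Genes named are the 12 largest rises and falls called with 4 and 12 libraries (at least 1 FPKM, no overlap), up to 4 called members of each list per direction, 22 fixed markers and the 5 most abundant genes of each group; APOA1, COL3A1, FN1, CDH5, TEK, KDR, TTN, GATA4, TBX5, TBX20, HCN4 and HOXB4 fall outside this rule and were chosen after their values were seen. Promoters are from RefSeq (GRCh38.p14). Figures were made with matplotlib 3.10.9. Some genes that the rule names are not reported here.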

Additional observations from a re-analysis of the deposited data

How the results depend on the processing

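The count of 5361 genes (2256 higher, 3105 lower; 42.1% higher) moved by more than 1.5 times in a few settings. With all 12 libraries it was 783 (136 higher, 647 lower; 17.4% higher). With limma on log2(FPKM + 1) and log2(FPKM + 0.1), 1321 and 1313 genes were higher (29.2% and 28.8% of the calls), and with total counts 1609 were higher (29.6%). Leaving out each library gave 2137 to 6854 genes, 628 to 2998 higher and 1509 to 3856 lower, with the fewest calls without an NP-IWP2 library; the lone library of a group is then assumed to vary like the other group. DESeq2 called 3942 genes, and no filter 6285. The causes were not tested. Of 207 named genes with a test, none changed direction in any of 13 settings (167 of them could be compared with a mean of at least 1 FPKM); 130 lost their call with 12 libraries, 17 without P-IWP2 replicate 5, 5 with DESeq2, 26 and 25 with limma on log2(FPKM + 1) and log2(FPKM + 0.1), 5 with total counts, and 44 and 59 without NP-IWP2 replicates 1 and 2. Medians of the lists of cardiac transcription factors, atrial, smooth muscle, paraxial mesoderm and integrin genes changed sign in at least 1 setting. No paired analysis was possible because the groups carry replicate numbers 1 and 2 against 3 and 4 and share none. With 2 libraries per group and 3 counts at 0.168 to 0.202 CPM, genes at or below that level could not be told from 0.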

Other observations

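The counts of each list in this paragraph stand beside 12.5% of all genes higher and 17.3% lower. Of 7 tested HOX genes, which pattern the body axis, 6 were lower in P-DF cells and 0 higher. With 12 libraries, 4 were lower by edgeR. The median log2 fold change was -4.00 as fitted and -3.88 with bounds. The other 32 HOX genes were not tested, and their largest library level was 0.36 FPKM. HOXB6 was at 2.00 and 1.55 FPKM in NP-IWP2 cells and at 0.00 and 0.02 FPKM in P-DF cells, and HOXB4 was at 10.2 and 10.7 FPKM against 4.30 and 4.10 FPKM. Of 15 retinoid genes, 4 rose and 6 fell (1 and 5 without either NP-IWP2 library). RDH10, the enzyme that makes retinal, rose from 8.74 and 9.50 FPKM to 19.0 and 17.5 FPKM (edgeR adjusted p = 5.61e-05, and 0.00408 with 12 libraries), whereas ALDH1A1, which makes retinoic acid from retinal, was at 8.58 and 7.48 FPKM against 0.05 and 0.02 FPKM. Of 19 genes of amino acid and unfolded protein stress, 1 rose and 5 fell (1 and 2 without NP-IWP2 replicate 2), against 12.5% of all genes higher and 17.3% lower. The genes that fell include PHGDH, the entry enzyme of serine synthesis, from 11.9 and 12.0 FPKM to 3.72 and 3.87 FPKM (edgeR adjusted p = 4.11e-06). Of 14 hypoxia genes, 1 rose and 5 fell, and of 17 immediate early genes, 4 rose and 7 fell (2 and 1 without NP-IWP2 replicate 1, 0 and 6 without replicate 2).

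Keratins of stratified epithelium were among the largest fitted rises, at low levels; they were chosen after their values were seen. KRT5 was at 0.00 and 0.01 FPKM in NP-IWP2 cells and at 0.83 and 0.71 FPKM in P-DF cells, and KRT15 was at 0.01 and 0.00 FPKM against 0.66 and 0.51 FPKM. KRT13 was listed at 0.00 FPKM in both NP-IWP2 libraries and at 0.55 and 0.47 FPKM in P-DF cells. All 3 were higher by edgeR's quasi-likelihood test with 4 libraries (adjusted p = 0.000194, 0.000172 and 0.00105) and with 12.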
